A study of Mus musculus with 12 samples.

Results

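The genes described here are 46 Wnt pathway genes other than ligands: the Frizzled receptors and their co-receptors, the secreted antagonists, the R-spondins with their receptors and ligases, the TCF/LEF factors, and feedback and target genes. They were taken by symbol from a written list, and each symbol was matched to an Ensembl gene of the deposited E14.5 table. All 46 were found among the 54532 genes of that table, and 45 of them were among the 16733 genes abundant enough to test. Of the 45, 6 were higher in the iCreb5 libraries (*Fzd1*, *Fzd4*, *Sfrp2*, *Dkk2*, *Rspo2* and *Rspo3*) and 2 were lower (*Fzd9* and *Notum*). These are 13.3% and 4.44% of the tested members, beside 3.87% and 2.85% of all genes tested. The other 37 members did not pass the test, among them all co-receptors, TCF/LEF factors and feedback genes. Of these, *Lef1*, *Tcf7*, *Wif1* and *Sfrp1* passed in a fit that paired the libraries by litter.

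RNA was sequenced from limb bud mesenchymal cells of mouse embryos at E14.5, sorted by fluorescence. Males carrying *Prrx1*-Cre, a Cre recombinase under the *Prrx1* limb enhancer, were crossed to females with either of 2 Cre-dependent alleles at the *Rosa26* locus. In the iCreb5 group, Cre switched on HA-tagged bovine Creb5, a leucine-zipper transcription factor, followed by an ires-GFP cassette. In the tdTomato group, the control, Cre switched on the red fluorescent protein tdTomato. Both groups therefore carried *Prrx1*-Cre and a recombined *Rosa26* allele, and they differed in the bovine Creb5 and in the fluorescent protein by which the cells were sorted. There were 6 libraries per group: 3 of each from litter 3, and 1 of each from litters 4, 5 and 6. The design text speaks of 6 litters, whereas the labels name 4. Each litter carries a batch label of its own, and the effects of litter and of batch cannot be told apart. The sources used here do not say whether a library came from 1 embryo or several. The p-values measure the spread between libraries only, which may be technical.

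Wnt proteins are secreted, lipid-modified signals that bind Frizzled receptors, and with the co-receptors Lrp5 and Lrp6 they stabilise beta-catenin, which then works with TCF/LEF factors on target genes. Secreted antagonists bind the Wnt or the co-receptor, whereas R-spondins, through Lgr receptors, keep the ligases Rnf43 and Znrf3 from removing Frizzled from the cell surface. In the limb, Wnt signalling patterns the bud, restrains cartilage formation in the mesenchyme, favours bone formation and acts in the forming joints.

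Depth ran from 9.02 to 53.3 M reads (M, mega) per library, and a value equal to 3 reads lay between 1.48 and 8.38 normalised counts. *Creb5* itself was at 2799 ± 214 in iCreb5 and 1803 ± 299 in tdTomato (SD, n = 6), with no overlap (adjusted p = 0.00219). The sources used here do not say whether transcripts of the bovine gene were counted with it. Of 9 limb mesenchyme markers, none passed the test, none was at 0 in a library, and their summed values covered the same range in both groups (318271 to 685205 against 315430 to 679603). All 12 leukocyte markers were higher in iCreb5, with sums of 2591 to 12215 against 679 to 1154. *Ptprc*, the common leukocyte antigen, was at 0 in a tdTomato library and at 10.3 or more in every iCreb5 library. Of 18 chondrocyte markers, 17 were lower in iCreb5, with sums of 123225 to 164232 against 241062 to 499392. Of 8 tested osteoblast markers, 7 were lower, with sums of 4107 to 15496 against 11354 to 47152, and *Bglap* and *Bglap2* were at 0 in a library. Of 8 endothelial markers, 5 were higher, with sums of 1434 to 4041 against 1139 to 1629. Muscle and red cell markers did not pass, and 1 epidermal and 1 Schwann cell or melanoblast marker were lower, with *Pax7*, *Cdh1* and *Foxd3* at 0 in a library. The part of these marker differences in the results on Wnt genes was not tested. In sorted bulk samples, fewer cells of a type and less RNA per cell cannot be told apart.

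**Figure D1:**
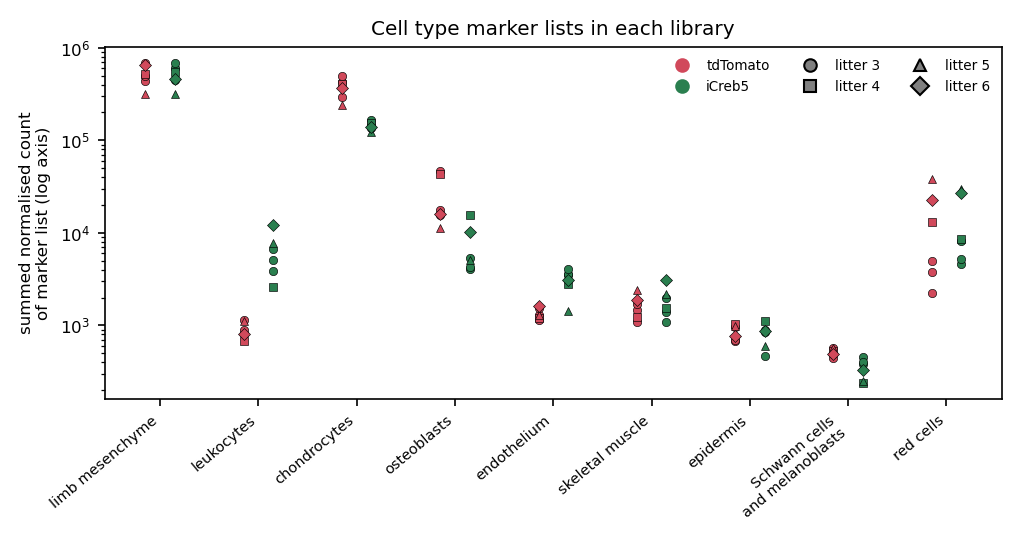
Summed normalised counts of each cell type marker list on a log axis, with 1 point per library, colour for the group and shape for the litter. The leukocyte and chondrocyte sums do not overlap between groups, while the limb mesenchyme sums cover the same range. Endothelial sums are higher in iCreb5 on average but overlap (1434 to 4041 against 1139 to 1629). Osteoblast sums are lower on average and overlap too (4107 to 15496 against 11354 to 47152).

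Values are normalised counts, meaning gene counts scaled by 1 size factor per library. Changes are differences of log2(value + 1), iCreb5 minus tdTomato, with their standard errors. Adding 1 makes changes of genes with low counts look smaller. A gene passed with a Benjamini-Hochberg adjusted p under 0.05 over all genes tested in limma. By that rule 3.87% of all genes tested were higher in iCreb5, 2.85% were lower, and 6.72% passed in either direction. Among the members, 13.3% were higher, 4.44% lower, and 17.8% passed in either direction. The members were chosen with earlier results of these data known, so setting these shares beside those of all genes is not an independent comparison. The members' median log2 change was -0.05, with 19 above and 26 below 0, beside a median of 0.00 over all genes. As a list the members were thus centred near 0. Values of the iCreb5 and tdTomato libraries did not overlap for 7 members, 5 higher and 2 lower, against 4.75% of all genes.

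**Figure D2:**
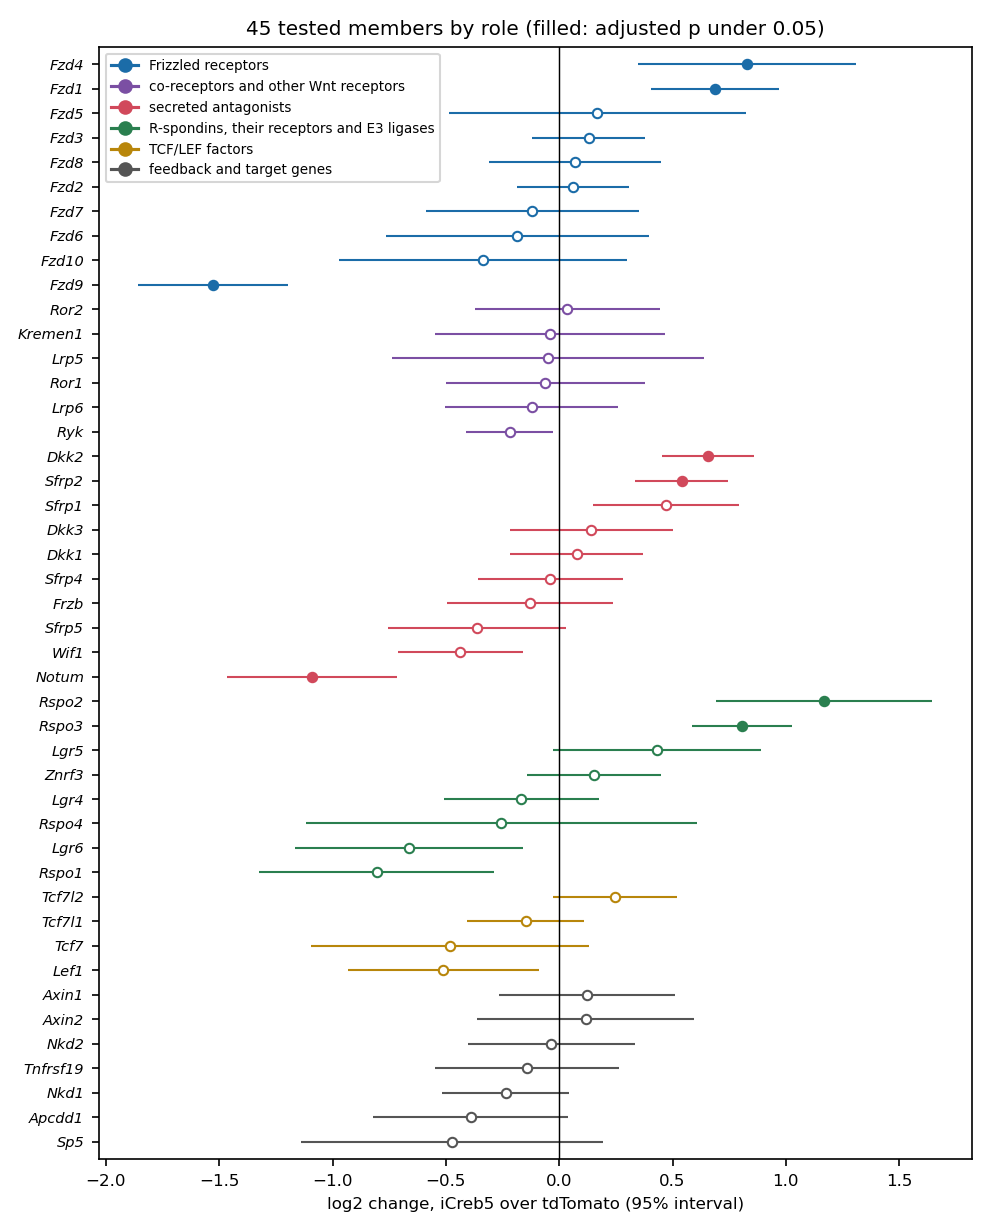
Log2 change of each of the 45 tested members, iCreb5 over tdTomato, with its 95% interval before adjustment, grouped and coloured by role. Filled points mark the 8 members with an adjusted p under 0.05, which run from -1.53 for *Fzd9* to 1.17 for *Rspo2*.

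The 10 Frizzled receptor genes included 2 that rose and 1 that fell, and 7 did not pass. *Fzd9* (ENSMUSG00000049551, chr5:135248938-135251230, minus strand, GRCm38) showed the largest change of any member that passed. Its values were 558, 692 and 869 in iCreb5 (lowest, median and highest of 6 libraries) and 1483, 1863 and 2759 in tdTomato. Every iCreb5 library thus lay below every tdTomato library, and the gap between the groups was wider than the range within iCreb5. The gene was 2.88-fold lower in iCreb5 (log2 change -1.53 ± 0.15 SE, adjusted p = 1.54e-05).

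*Fzd1* (ENSMUSG00000044674, chr5:4753839-4758035, minus strand) was 1736, 2423 and 2747 in iCreb5 and 1095, 1563 and 1602 in tdTomato. The groups did not overlap, although iCreb5 5 and tdTomato 5b, both of litter 5, were the lowest libraries of their groups. The difference was 1.61-fold (log2 change 0.69 ± 0.13, adjusted p = 0.00393).

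*Fzd4* (ENSMUSG00000049791, chr7:89404355-89413134, plus strand) encodes a receptor that binds norrin as well as Wnts and is well known for its role in retinal vessels. It was 1129, 1708 and 2350 in iCreb5 and 518, 949 and 1500 in tdTomato. Here the groups overlapped: iCreb5 5 and iCreb5 3b lay below tdTomato 4a. The rise was 1.78-fold (log2 change 0.83 ± 0.23, adjusted p = 0.0364). This call was the least stable of the 8. It was lost in 9 of the 12 fits that left out 1 library, namely without iCreb5 3a, 3c, 4a or 6, or without tdTomato 3a, 3b, 3c, 5b or 6d, where the adjusted p lay between 0.0532 and 0.0860. It held without iCreb5 3b, iCreb5 5 or tdTomato 4a. Of the endothelial marker sums, that of iCreb5 5 was also the lowest of its group (1434, against 2783 or more in the other iCreb5 libraries). This library was the lowest of its group for 25 of the 45 tested members. In iCreb5 3b, which was also low for *Fzd4*, the endothelial sum was 3553. In tdTomato 4a, the highest of its group for *Fzd4*, that sum was 1195, within a group range of 1139 to 1629. The part of endothelial cells in the *Fzd4* result was not tested.

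The 7 other Frizzled genes had log2 changes between -0.34 (*Fzd10*) and 0.17 (*Fzd5*). *Fzd2*, the most abundant Frizzled gene per kilobase of exon, was at 5676 ± 375 in iCreb5 and 5507 ± 942 in tdTomato (log2 change 0.06, 95% interval -0.19 to 0.31). *Fzd7* (log2 change -0.12) and *Fzd8* (0.07) had wider intervals, -0.59 to 0.35 and -0.31 to 0.45. *Fzd3* (0.13), *Fzd5*, *Fzd6* (-0.19) and *Fzd10* completed the family, and the last 3 were weakly expressed, at 35.6 to 215 in every library. A change of the size seen for *Fzd9* lay outside the interval of each of these 7 genes.

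Levels per kilobase of exon make genes of a family comparable. On that scale the sum of the 10 Frizzled genes was 3486 ± 361 in iCreb5 and 3700 ± 364 in tdTomato, so the ranges of the groups overlapped. Shares of a sum depend on each other, since a fall of any gene raises the shares of the others. Within the sum, *Fzd9* gave 23.6 ± 4.18% in tdTomato and 8.77 ± 1.90% in iCreb5 (SD, n = 6), with no overlap. *Fzd1* gave 9.48 ± 1.35% and 16.1 ± 1.37%, and *Fzd4* 3.93 ± 1.44% and 7.10 ± 1.30%, in the same order, the shares of *Fzd4* overlapping. *Fzd2* held the first place in both groups, with 40.5 ± 4.99% and 44.7 ± 3.95%. The place of *Fzd9* therefore differed: it was second to *Fzd2* in all 6 tdTomato libraries by its share, and *Fzd1* had a larger share than *Fzd9* in all 6 iCreb5 libraries.

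**Figure D3:**
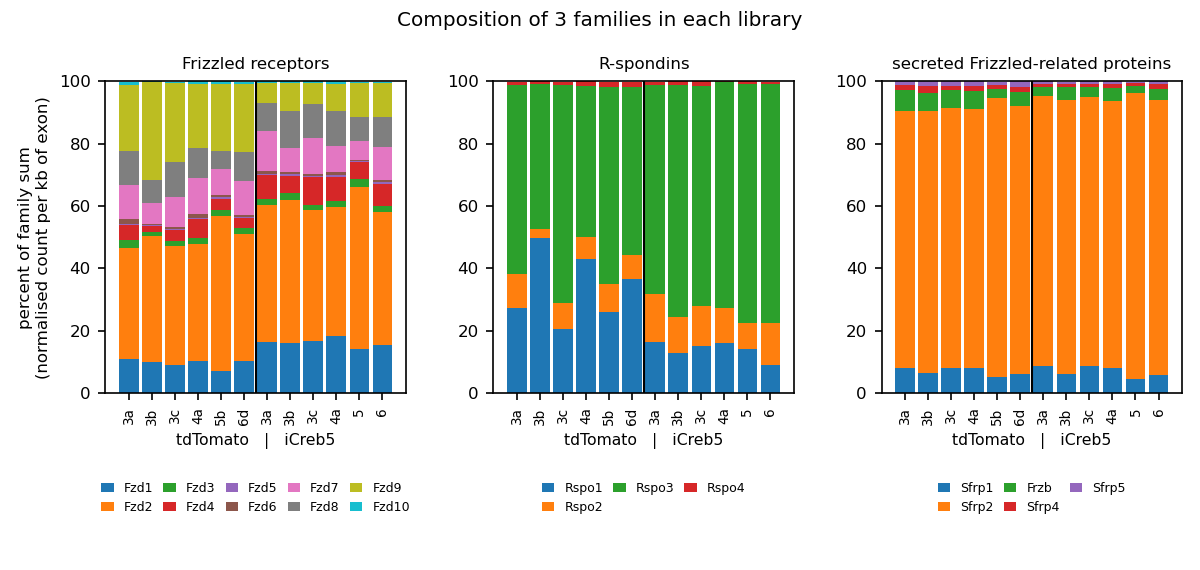
Share of each gene in the summed level per kilobase of exon of its family, as stacked bars with 1 bar per library, for the Frizzled receptors, the R-spondins and the secreted Frizzled-related proteins. *Fzd9* falls from 23.6% on average in tdTomato to 8.77% in iCreb5, and *Rspo3* makes up 57.1% and 73.1% of the R-spondin sum.

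None of the 6 genes for co-receptors and other receptors passed the test, and their log2 changes ran from -0.22 to 0.04. *Lrp6* was at 1479 ± 451 in iCreb5 and 1567 ± 245 in tdTomato (log2 change -0.12, interval -0.50 to 0.26). *Lrp5* was at 211 and 213 on average (log2 change -0.05, interval -0.74 to 0.64). The Wnt5a receptor genes *Ror1* and *Ror2* had changes of -0.06 and 0.04. *Kremen1*, whose product removes Lrp6 from the surface together with Dickkopf proteins, had a change of -0.04. *Ryk*, for a receptor with an inactive kinase domain, was the only gene of these 6 with an unadjusted p under 0.05, at 3103 ± 234 and 3610 ± 259 (log2 change -0.22, adjusted p = 0.2).

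The 10 secreted antagonist genes likewise included 2 that rose and 1 that fell, and 7 did not pass. *Sfrp2* (ENSMUSG00000027996, chr3:83766321-83774316, plus strand) encodes a secreted Frizzled-related protein, which carries a Frizzled-like Wnt-binding domain. It was the most abundant member per kilobase of exon, and its normalised counts were 20329.5, 21730 and 25985 in iCreb5 and 13639, 15712 and 17616 in tdTomato. The lowest iCreb5 library lay above the highest tdTomato library. The difference was 1.45-fold (log2 change 0.54 ± 0.10, adjusted p = 0.00216), and it was nearly the same in each litter, from 0.49 to 0.56. *Dkk2* (ENSMUSG00000028031, chr3:132085292-132180304, plus strand) encodes a Dickkopf protein, a ligand of Lrp5 and Lrp6. Its values were 5406, 6151 and 6643 in iCreb5 and 3474, 3746 and 4605 in tdTomato, without overlap. It was 1.58-fold higher (log2 change 0.66 ± 0.10, adjusted p = 0.000412), while *Dkk1* (0.08) and *Dkk3* (0.14) did not pass.

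*Notum* (ENSMUSG00000042988, chr11:120653788-120661175, minus strand) encodes an extracellular enzyme that removes the lipid from Wnt proteins, and it is itself a Wnt target in several tissues. It was 147, 183 and 279 in iCreb5 and 321, 414 and 514 in tdTomato. The highest iCreb5 value (4a) stayed below the lowest tdTomato value (3a). *Notum* was 2.13-fold lower in iCreb5 (log2 change -1.09 ± 0.18, adjusted p = 0.000989). Annotated exons of an antisense gene, *Notumos*, cover 29.4% of the exon bases of *Notum*. The sources used here do not say whether counting used strand, so reads of the 2 genes cannot be told apart, and *Notumos* was listed at 13.4 ± 6.11 in iCreb5 and 21.0 ± 5.66 in tdTomato. Antisense exons also cover 16.1% of *Sfrp2* and 13.1% of *Rspo3*, from genes listed at mean values of 53.5 or less. As for *Notum* and *Fzd9*, the chondrocyte marker sum of every iCreb5 library was below that of every tdTomato library. Osteoblast marker sums were lower in iCreb5 on average, but the groups overlapped (4107 to 15496 against 11354 to 47152). The part of these cell types in the results on *Notum* and *Fzd9* was not tested.

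Of the 7 antagonist genes that did not pass, *Wif1* and *Sfrp1* lay nearest the threshold. *Wif1*, for the secreted Wnt inhibitory factor, was at 1692, 2110 and 2541 in iCreb5 and 2318, 2693 and 3470 in tdTomato, with iCreb5 4a above 2 tdTomato libraries by value (log2 change -0.44 ± 0.13, adjusted p = 0.0589). With litter as a block in the fit, which pairs the libraries of a litter, its adjusted p was 0.0258. It also passed without iCreb5 4a (0.0387) or tdTomato 6d (0.0464). *Sfrp1* was at 3539 ± 793 and 2519 ± 378 (log2 change 0.47 ± 0.15, adjusted p = 0.0818), with 0.0100 in the block and 0.0197 without iCreb5 5. Both genes were thus near the threshold in opposite directions. *Sfrp4* (-0.04), *Sfrp5* (-0.36) and *Frzb* (-0.13), the remaining secreted Frizzled-related genes, did not pass.

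Per kilobase of exon, *Sfrp2* made up 84.9 ± 2.55% of the summed secreted Frizzled-related level in tdTomato and 87.8 ± 2.30% in iCreb5. The sum itself was 8438 ± 637 and 11853 ± 829, without overlap between the groups. The 3 Dickkopf genes summed to 2441 ± 307 and 3153 ± 337, where the groups overlapped. In both groups, therefore, *Sfrp2* gave most of the transcripts of its family.

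The R-spondin group held the largest rise among the members, with 2 of its 8 tested genes higher and none lower. *Rspo2* (ENSMUSG00000051920, chr15:43020794-43170826, minus strand) encodes an R-spondin required for normal limb outgrowth in mice. It was 457, 660 and 889 in iCreb5 and 158, 318 and 452 in tdTomato. The groups were separated only narrowly, by iCreb5 5 at 457 and tdTomato 3a at 452. The fold was 2.25 (log2 change 1.17 ± 0.23, adjusted p = 0.00382). *Rspo3* (ENSMUSG00000019880, chr10:29452416-29535867, minus strand), which acts with *Rspo2* in limb growth, was 2228, 2481 and 3042 in iCreb5 and 1252, 1464 and 1587 in tdTomato. These groups were well apart, and the rise was 1.75-fold (log2 change 0.81 ± 0.10, adjusted p = 0.000136).

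*Rspo1* differed in the other direction without passing. It was 224, 294 and 360 in iCreb5 and 292, 504 and 985 in tdTomato (log2 change -0.81 ± 0.24, adjusted p = 0.0627). The tdTomato libraries were spread more than 3-fold, with tdTomato 3b the highest and tdTomato 3c the lowest and inside the iCreb5 range. Without tdTomato 3c the adjusted p was 0.0172, without tdTomato 5b it was 0.0417, and edgeR on the recovered reads gave 0.0337. With litter as a block limma gave 0.0603 and edgeR 0.0385. *Rspo4* was at or under 35.3 in every library.

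Per kilobase of exon the R-spondin sum was 828 ± 104 in tdTomato and 1118 ± 91.7 in iCreb5, and the groups overlapped. The share of *Rspo3* was 57.1 ± 9.07% and 73.1 ± 3.74%, that of *Rspo1* 33.9 ± 11.2% and 13.9 ± 2.76%, and that of *Rspo2* 7.65 ± 2.59% and 12.1 ± 2.38%. For *Rspo1* the shares of the groups did not overlap (20.5% or more in tdTomato, 16.4% or less in iCreb5), although the gene itself did not pass. A share also falls when other genes of the sum rise, and *Rspo2* and *Rspo3* were called higher. The lower share of *Rspo1* is therefore not separate evidence of a fall in *Rspo1* itself. These shares were described and not tested.

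None of the receptor and ligase genes of the R-spondin group passed. *Lgr4*, the most abundant of the 3 Lgr genes per kilobase, was at 1001 ± 147 and 1144 ± 291 (log2 change -0.17). *Lgr5* was at 1038 ± 334 and 731 ± 89.95 (0.43, adjusted p = 0.308), and *Lgr6* at 87.7 ± 31.3 and 135 ± 27.8 (-0.66, adjusted p = 0.125). Both *Lgr5* and *Lgr6* passed when iCreb5 5 was left out (adjusted p = 0.0124 and 0.0495), a library in which *Lgr5* was the lowest and *Lgr6* the highest of its group. *Znrf3* had a change of 0.15. *Rnf43* was too low to test, at 5.74 to 28.0 in iCreb5 and 0 to 39.6 in tdTomato.

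**Figure D4:**
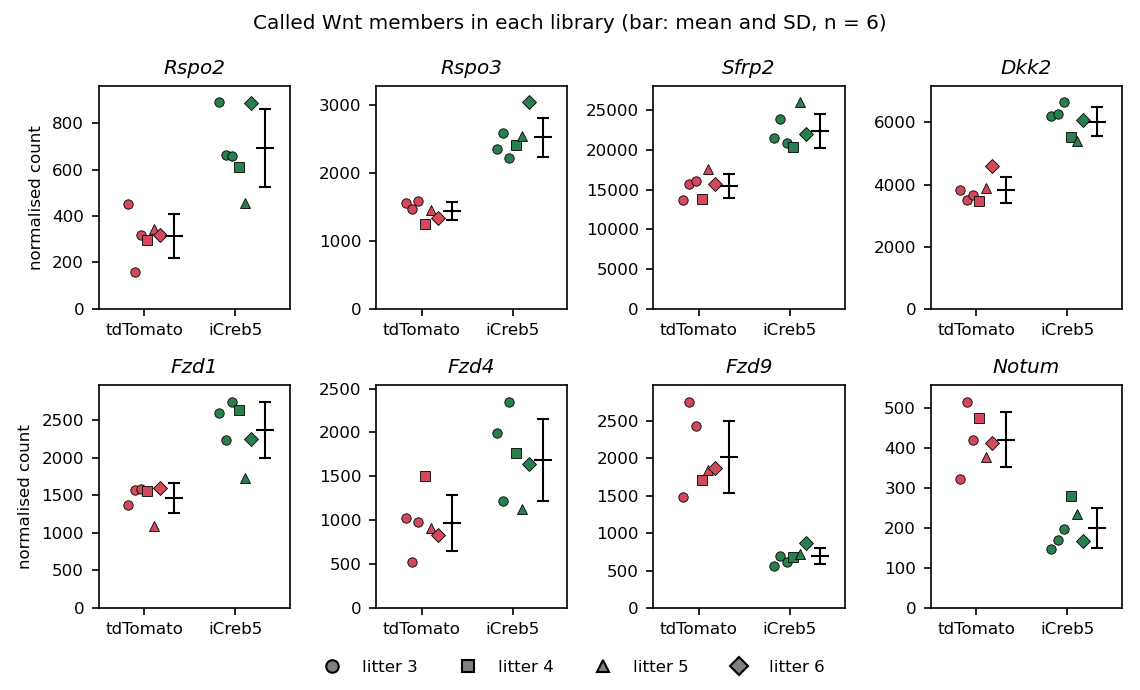
Normalised counts of the 8 members that passed the test, with 1 point per library, the shape giving the litter, and the mean and SD of each group (n = 6) beside the points. The groups do not overlap except for *Fzd4*, and *Rspo2* is separated only by 457 against 452.

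None of the 4 TCF/LEF genes passed. *Lef1*, itself a Wnt target in many tissues, was at 640.5 ± 210 in iCreb5 and 888 ± 161 in tdTomato (log2 change -0.51 ± 0.20, adjusted p = 0.167). *Tcf7* was at 270.5 ± 87.0 and 374 ± 119 (-0.48 ± 0.29, adjusted p = 0.419). With litter as a block both passed, at 0.0366 and 0.0274. *Lef1* also passed without iCreb5 4a (0.0490), the highest iCreb5 library for this gene. Exons of an antisense gene listed at 91.4 ± 20.3 and 145 ± 48.3 cover 13.7% of *Lef1*. *Tcf7l1* (-0.15) and *Tcf7l2* (0.25), the more abundant pair, passed in neither fit.

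None of the 7 feedback and target genes passed, and none had an unadjusted p under 0.05. *Axin2*, for a scaffold of the destruction complex and the most widely used readout of beta-catenin signalling, was at 200 ± 33.6 in iCreb5 and 192 ± 65.4 in tdTomato. Its log2 change was 0.12, with an interval of -0.36 to 0.59. *Axin1*, the scaffold that is not a target, had a change of 0.12. Of the dishevelled-binding feedback genes, *Nkd2* had a change of -0.03 and *Nkd1* one of -0.24 (interval -0.52 to 0.04). *Apcdd1* (-0.39), *Sp5* (-0.47) and *Tnfrsf19* (-0.14) were also lower on average, with intervals that included 0. *Sp5* had the widest interval, -1.14 to 0.19, so that falls up to that size were within it.

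The sequences before the transcript starts are shown for 3 of the 8 changed genes and for 2 target genes, to set them beside the factor that was expressed and the pathway. RefSeq promoter windows (GRCm38.p6, 250 bases before to 50 after the start) were matched by symbol for 29 of the 46 members, with 36 windows in all. In the first 3 the 250 bases before the start are given 5′ to 3′, with CG dinucleotides in capitals: *Sfrp2* at chr3:83766071-83766320 (plus strand), *Dkk2* at chr3:132085042-132085291 (plus strand) and *Fzd1* at chr5:4758217-4758466 (minus strand).
Sfrp2: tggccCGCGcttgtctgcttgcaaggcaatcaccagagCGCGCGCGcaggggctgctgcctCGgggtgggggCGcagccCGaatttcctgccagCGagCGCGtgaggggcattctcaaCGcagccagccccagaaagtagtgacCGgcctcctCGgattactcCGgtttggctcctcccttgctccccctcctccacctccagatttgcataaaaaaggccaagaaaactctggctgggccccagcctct
Dkk2: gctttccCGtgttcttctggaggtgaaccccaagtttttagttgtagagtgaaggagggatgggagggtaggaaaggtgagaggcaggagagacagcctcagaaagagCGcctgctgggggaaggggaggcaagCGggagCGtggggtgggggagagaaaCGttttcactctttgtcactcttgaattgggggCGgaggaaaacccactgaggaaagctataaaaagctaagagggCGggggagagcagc
Fzd1: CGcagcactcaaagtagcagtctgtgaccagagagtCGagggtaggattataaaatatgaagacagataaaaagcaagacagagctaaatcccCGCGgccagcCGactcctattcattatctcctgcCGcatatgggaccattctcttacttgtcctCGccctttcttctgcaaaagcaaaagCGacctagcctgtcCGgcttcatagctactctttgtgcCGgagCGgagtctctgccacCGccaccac
These stretches hold 16, 7 and 12 CG dinucleotides, beside a median of 6 over 32851 windows. Fewer were found in 74.6%, 53.7% and 66.5% of windows, in that order. The stretches of *Fzd4* and *Fzd9* hold 25 and 42, with fewer in 89.3% and 99.1% of windows. These 2 are not wholly upstream, since they reach into annotated exons. That of *Fzd9*, chr5:135251048-135251297, overlaps the annotated gene, whose 5′ end is at 135251230.

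The windows were searched on both strands for TGACGTCA, the cAMP response element that CREB proteins bind, for its shorter form TGACG, and for TGANTCA, the AP-1 element. TGACG is contained in TGACGTCA. None of the 3 was found in the windows of the 5 changed genes that have one (*Dkk2*, *Fzd1*, *Fzd4*, *Fzd9* and *Sfrp2*), and such a search says nothing of other places in the genome. Over the 36 member windows TGACGTCA was found in 0, TGACG in 4 (*Ror1*, *Rspo4*, *Sfrp5* and *Tcf7l2*) and TGANTCA in 1 (*Ror2*). Over all windows the shares were 1.79%, 20.8% and 7.81%. The TCF/LEF elements CTTTGAT and CTTTGAA were found in 2 and 1 of the member windows, beside 3.73% and 5.13% of all windows. CTTTGAT lay in those of the target genes *Sp5* (first base at -104 from the start) and *Tnfrsf19* (at -202, on the other strand), and CTTTGAA in that of *Dkk1*. The *Tnfrsf19* match is in a window that lies inside the annotated gene (chr14:60963875-61046490). The other *Tnfrsf19* window, at chr14:61046806-61047105, holds none of the elements searched for. The matches are shown in capitals within 67 bases, for *Sp5* at chr2:70474789-70474855 (plus strand) and *Tnfrsf19* at chr14:61038153-61038219 (minus strand).
Sp5: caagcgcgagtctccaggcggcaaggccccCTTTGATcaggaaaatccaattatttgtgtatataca
Tnfrsf19: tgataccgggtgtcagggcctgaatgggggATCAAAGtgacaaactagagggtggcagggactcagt
A match is a run of letters and not a measured binding site. Neither gene passed the test.

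Within litters, all 8 members that passed had the same direction in 4 of 4 litters, as did 19 of the 45 tested members. The 8 were called from these same libraries, so their agreement across litters is not an independent check. The share of all genes with 4 of 4 was not computed. Between litter 3 and litters 4 to 6, 16 of the tested members had opposite signs. In litter 3 alone (3 against 3 libraries), 6 members passed beside 4.11% of all genes, and *Fzd4* (adjusted p = 0.0716) and *Rspo2* (0.0595) did not. In litters 4 to 6 alone, with litter in the fit, 8 members passed, again beside 4.11% of all genes. There *Fzd4* was lost (0.144) and *Apcdd1*, with a log2 change of -0.78, was gained (0.0094). *Apcdd1* had a change of -0.01 in litter 3. When the difference between litter 3 and the other litters was tested as an interaction in limma, 0.0% of all genes passed. An unadjusted p under 0.05 was found for 1500 of the 16733 genes, among them 5 of the 45 tested members. The smallest adjusted p of a member was 0.533. With litter as a block over all 12 libraries, 12 members passed in place of 8, while over all genes the share that passed was 9.48% in place of 6.72%. Of the 12, 7 were higher and 5 lower, the added ones being *Sfrp1*, *Wif1*, *Lef1* and *Tcf7*.

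**Figure D5:**
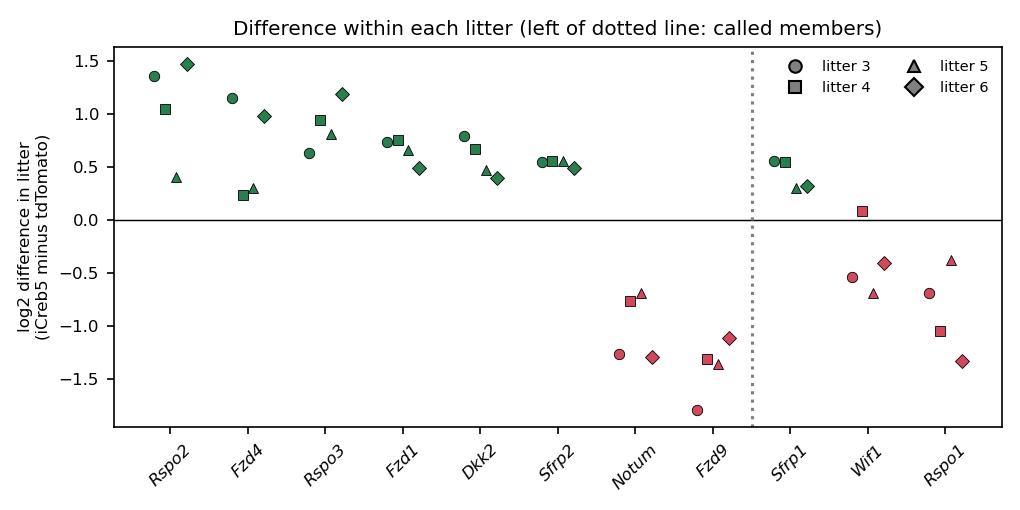
Log2 difference between iCreb5 and tdTomato within each litter, by shape, for the 8 members that passed and, right of the dotted line, the 3 with an adjusted p under 0.1. Colour gives the direction over all libraries, and only *Wif1* has a litter (litter 4, 0.08) on the other side of 0.

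iCreb5 5 was the lowest library of its group for 25 of the 45 tested members (55.6%), against 28.0% of all genes tested. tdTomato 5b, from the same litter, was the lowest of its group for 16 members (35.6%), against 26.6% of all genes. In both, the limb mesenchyme marker sum was also the lowest of its group (318271 and 315430). Without iCreb5 5 and 6, 8 members were higher and 2 lower beside 6.84% of all genes in either direction, the added ones being *Sfrp1* (adjusted p = 0.0079) and *Lgr5* (0.0165). Without tdTomato 3a and 5b, 5 were higher and 2 lower beside 5.87% of all genes, with *Fzd4* lost (0.0820). The 7 members whose groups do not overlap passed in both of these fits.

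Of 104 other genes of the pathway, listed by role with the ligands, 91 were tested, of which 3 were higher and 3 lower. This share, 6.59%, was close to the 6.72% of all genes. Of the 12 tested Wnt ligand genes, *Wnt16*, a ligand of the joint interzone, was higher (log2 change 2.64 ± 0.22) and *Wnt5a*, the main ligand of Ror receptors, was 1.52-fold lower (-0.60 ± 0.15, adjusted p = 0.0263). *Wnt5a* was 1785, 2016 and 3009 in iCreb5 and 2465, 3555 and 4060 in tdTomato, with overlap. Its call was lost when libraries were rescaled to equal totals (adjusted p = 0.0633) and in litter 3 alone (-0.29, 0.468), while the change was -0.91 in litters 4 to 6 alone (0.00587). Neither *Porcn* nor *Wls*, which serve Wnt secretion, passed. Of 27 genes of the destruction complex and beta-catenin transducers, only *Tle1*, for a Groucho-type co-repressor that binds TCF/LEF factors, passed: it was at 3322 ± 319 and 2072 ± 282 (0.69 ± 0.11, adjusted p = 0.000954). *Ctnnb1*, for beta-catenin, had a change of -0.18. None of the 16 tested planar polarity genes passed.

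Among 17 other extracellular modulators, 2 were lower. *Trabd2b*, for a membrane protease that cuts Wnt proteins, was at 392 ± 57.6 and 568 ± 81.9 (log2 change -0.53 ± 0.14, adjusted p = 0.0256, and 0.0518 after rescaling to equal totals). *Gpc3*, for the Wnt-binding proteoglycan glypican 3, was at 53999.6 ± 4031 and 67413 ± 4400 (-0.32 ± 0.09, adjusted p = 0.0426), and it no longer passed when libraries were rescaled to equal totals (0.136). *Tspan12*, for a partner of Fzd4 in norrin signalling, was 1.46-fold higher without passing (adjusted p = 0.0636), and it passed with litter as a block (0.0295). Of 19 other target genes *Fgf18*, a growth factor gene of the perichondrium, was higher (0.58 ± 0.12, adjusted p = 0.00595). *Myc* (-0.13) and *Ccnd1* (-0.15), both often listed as Wnt targets, did not pass.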

How the data were processed

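RNA from 6 iCreb5 and 6 tdTomato libraries was measured by poly(A) RNA sequencing with Nextera XT libraries, per the labels' protocols. FastQC, STAR, Salmon and DESeq2 and the build mm10 are named in the submitters' processing notes without versions. The sources used here do not state strand use or the treatment of transgene reads. The deposited E14.5 table holds a normalised signal per gene, judged from the deposited values to be gene counts divided by 1 size factor per library: dividing by each library's step gave whole reads for 100% of values (tolerance 1e-06). Another deposited table (P0) was not used, since none of its 8 columns matches a sample's labels.

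The comparison used log2(value + 1), no covariate, and the two-sided moderated test of limma 3.58.1 (eBayes with trend, R 4.3.3). Genes entered the fit with values of 10 or more in 6 or more libraries. The threshold was an adjusted p of 0.05 (Benjamini-Hochberg over all 16733 genes tested). The fit was run on simulated counts with known changes. That simulation held no litter effect and no fold as small as those of most called members, so it does not cover them. The members and lists were chosen with earlier results of these data known. All members are given, and for the other pathway lists up to 4 genes past the threshold plus a few named for their role after their values were seen. Marker lists are given by sums, with names only for markers at 0 in a library, 1 of which is not reported here. Alternatives were edgeR 4.0.16 (quasi-likelihood) and DESeq2 1.42.0 on recovered reads, rescaling to equal totals, pseudocounts of 0.5 and 5, other filters, litter as a block, litters apart, and libraries left out. Of all genes called, 57.6% were higher in iCreb5, and 67.7% after rescaling, which moved the median change of all genes from 0.00 to 0.07.

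The labels give litters, which pair the libraries across groups. Deviations from the group means of same-litter pairs correlated with a median of 0.073 (12 pairs, -0.242 to 0.346), and those of other pairs with -0.033 (24 pairs). Levels per kilobase used the union of GENCODE M21 exons (GRCm38).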

Additional observations from a re-analysis of the deposited data

Results flagged for a closer look

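In 5 of the 90 groups of 6 values (45 tested members in 2 groups), 1 library stood far from the rest, with a gap to its nearest neighbour above Dixon's 95% critical share of the group's range. Chance flags about 1 in 20 groups, so this number is near what chance gives. All 5 libraries were the lowest of their group. *Dkk3* was at 3067 in iCreb5 5, where the other iCreb5 libraries were at 4413 or more. *Tcf7* was at 109.5 in the same library, with the others at 249.2 or more. *Lgr5* was at 564.4 in tdTomato 5b, with the others at 725 or more. *Fzd10* was at 36.76 in iCreb5 3b, and *Rspo4* at 5.386 in iCreb5 4a, both weakly expressed genes. None of these 5 genes was among the 8 that passed.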

How the results depend on the processing

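The 8 members that passed kept their direction under every alternative run, and 7 of them passed in each, except *Rspo2* in litter 3 alone (log2 change 1.36, adjusted p = 0.0595). The other, *Fzd4*, was lost without a filter on low values (0.0638), in both litter sets and in 9 fits without 1 library. The members called lower numbered 2, against 4 in DESeq2, 5 with litter as a replicate block, 6 in edgeR with that block, and 2 to 4 with 1 library left out. Members called higher numbered 5 to 8 with 1 library left out. Over all genes, 648 were higher and 477 lower. DESeq2 called 922 higher and 715 lower, limma with the block 859 and 728, and edgeR with the block 822 and 692, so calls over all genes rose in these fits too. In litter 3 alone 395 were higher and 292 lower, and in litters 4 to 6 alone 320 and 368, where 46.5% of calls were higher in place of 57.6%. edgeR called *Rspo1* lower too. DESeq2 added *Sfrp1* (0.0307), *Wif1* (0.0216) and *Rspo1* (0.00529). Depth limits *Rnf43*, *Rspo4*, *Fzd10* and *Fzd5* most: in the shallowest library 3 reads equal 8.38 normalised counts.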
